A study of Rattus norvegicus with 24 samples.

Results

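The change of the JQ1 effect between 60 min and 24 h was measured in primary striatal neuron cultures of neonatal rats on day 7 in culture. For each gene, the JQ1 effect at 60 min (JQ1 minus DMSO, experiment 1) was subtracted from the JQ1 effect at 24 h (JQ1 minus DMSO, experiment 3), both on log2 gene FPKM. These contrasts use 8 of the 23 libraries analysed here, 2 in each of 4 groups: DMSO with DMSO for 60 min, DMSO with JQ1 for 60 min, DMSO with DMSO for 24 h and DMSO with JQ1 for 24 h. All 8 carried DMSO vehicle, none carried the D1 dopamine receptor agonist SKF, and the labels give no dose. Another 8 libraries of the same experiments, with SKF in place of the first DMSO, gave the same contrast separately. A positive difference means that the JQ1 effect was more upward, or less downward, at 24 h than at 60 min. The 60 min and 24 h treatments are separate experiments, so time and experiment cannot be told apart. Nothing in the labels names 2 libraries of a group as separate cultures, so each p-value reflects spread between libraries, possibly technical spread. That spread was estimated within groups over all 23 libraries, not from the 8 alone.

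JQ1 is a small molecule that occupies the acetyl-lysine pockets of the BET family of bromodomain proteins. BET proteins bind acetylated histones at promoters and enhancers, and help to bring the kinase P-TEFb (CDK9 with cyclin T) to paused RNA polymerase II. P-TEFb is held inactive in a particle of the 7SK RNA with HEXIM and LARP7. The striatum consists mostly of GABAergic projection neurons, marked by the dopamine receptors Drd1 or Drd2 and by Ppp1r1b (DARPP-32), and its cultures can also hold astrocytes, oligodendrocyte lineage cells, microglia and interneurons.

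The 8 libraries held 6.48 to 14.9 gigabases of aligned sequence, 79.9 to 81.2% of it in annotated transcripts. Of the sequence in annotated transcripts, 9.91 to 13.3% was in mitochondrial genes. Neuronal identity was checked with 9 neuron markers, whose summed FPKM was 1986 to 2116 in 6 libraries and 1737 and 1819 in the 2 JQ1 24 h libraries. Astrocyte markers summed to 691 to 894 FPKM in the same 6 libraries and to 658 and 574 after JQ1 for 24 h, and oligodendrocyte markers to 59.8 to 76.1 in all 8. Microglia markers summed to 122 to 150 FPKM and, after JQ1 for 24 h, to 34.5 and 27.2. The cultures were thus neuronal by their markers, with other cell types present, and every sum is over the bulk RNA.

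The difference was called for 5124 of 13999 genes tested (36.6%) with limma at a Benjamini-Hochberg adjusted p under 0.05. It was higher at 24 h for 2374 genes (17%) and lower for 2750 (19.6%). Higher calls made up 46.3% of all calls with size-factor scaling, 31.8% on FPKM as deposited and 35.3% with voom. The median difference over all genes was 0.01 with size-factor scaling and -0.05 in each of the other 2 settings. Large differences were mostly downward: 457 called genes had a log2 difference of -1 or below and 46 had 1 or above. At -2 or below there were 32 genes and at 2 or above 1 gene, Akap13. The median absolute log2 effect of JQ1 was 0.07 at 60 min and 0.24 at 24 h. All log2 values are of FPKM plus 0.5, which understates the change of low genes.

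Genes were put into classes by 3 limma calls: the difference, the effect at 60 min and the effect at 24 h. At 24 h, 28.1% of all genes were called higher and 28.6% lower (56.7% in all), and at 60 min 1.86% were higher and 2.54% lower (4.4% in all). Late-only genes (difference and 24 h called, 60 min not called) numbered 4689, with 2082 higher and 2607 lower. Their median difference was 0.39 for the higher genes and -0.59 for the lower ones. Transient genes (difference and 60 min called, 24 h not called) numbered 107, of which 18 were higher and 89 lower at 60 min. A called effect of opposite sign at the other time was found for 31 genes, with 25 going from lower to higher and 6 from higher to lower. The 6 include 3 histone entries with near-identical values, described below. Effects of the same sign were called at both times for 420 genes. Among these the difference was called larger at 24 h for 100, called smaller for 31 and not called for 289. A further 166 genes had a called difference with neither single effect called. A missed threshold at one time does not show that JQ1 had no effect then.

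Rises and falls at 60 min differed in what was called at 24 h. Of 261 genes that rose at 60 min, 224 (85.8%) had also risen at 24 h, 18 (6.90%) were transient and 6 were reversed. Of 355 that fell at 60 min, 196 (55.2%) had also fallen at 24 h, 89 (25.1%) were transient and 25 (7.04%) were reversed. These shares are counts of calls, and their contrast was not tested. The classes that depend on the 60 min call rested on few libraries. Transient genes numbered 65, 57 and 58 without DMSO 60 min replicate 6, JQ1 60 min replicate 5 and JQ1 60 min replicate 6, and reversed genes 17, 15 and 15. Without DMSO 60 min replicate 6 or JQ1 60 min replicate 5, the genes with the same sign at both times numbered 250 and 225. The difference itself was called for 4155 to 4576 genes when any 1 of the 8 libraries was left out.

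**Figure D1:**
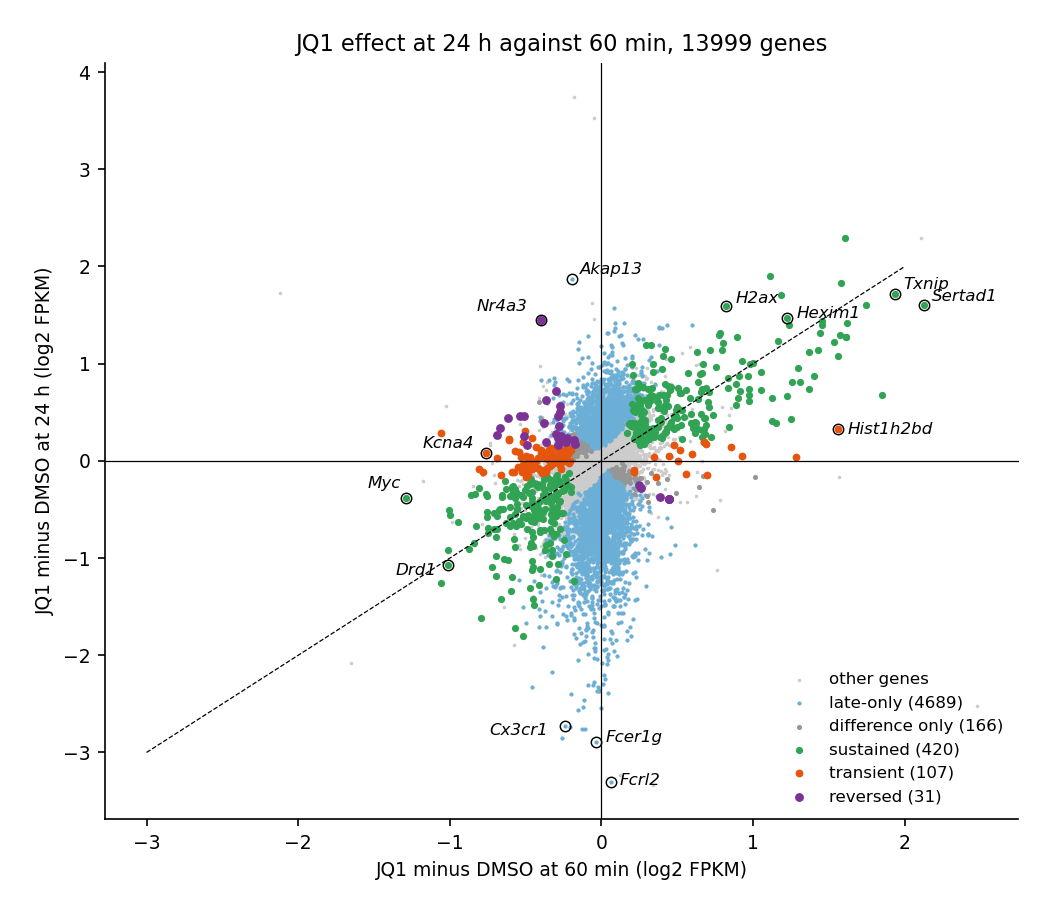
JQ1 effect at 24 h (y axis) against the effect at 60 min (x axis), both as log2 FPKM of JQ1 minus DMSO, 1 point per gene for 13999 genes and coloured by class. The dashed line marks equal effects; most of the 4689 late-only genes lie along the vertical axis, and Txnip, Hexim1 and Drd1 lie near the dashed line.

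Microglial genes had the most negative differences. Of 18 microglia markers tested, 16 were called lower and 0 higher, beside 19.6% of all genes called lower, with a median difference of -1.98. Cx3cr1, the fractalkine receptor of microglia (Rnor_6.0 chr8:128740756-128754514), had 3 and 2.77 scaled FPKM with DMSO and 2.30 and 2.42 with JQ1 at 60 min. At 24 h it had 3.5 and 2.97 with DMSO and 0.0362 and 0.0948 with JQ1. The 2 JQ1 24 h libraries were far below the other 6, and the difference was -2.48 ± 0.20 (SE; limma adjusted p = 1.6e-07). Fcrl2, an Fc receptor-like gene (chr2:186595051-186606172), had the lowest difference among the genes named by size, -3.36 ± 0.28 (adjusted p = 7.3e-07). It had 15.7 to 17.5 scaled FPKM in 6 libraries and 1.41 and 1.04 in the JQ1 24 h pair.

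Other receptor and complement genes of microglia followed the same pattern. Fcer1g, the signalling chain of Fc receptors, had 24.2 to 26.3 scaled FPKM in 6 libraries and 3.25 and 2.85 with JQ1 for 24 h, a difference of -2.86 ± 0.17 (adjusted p = 1.9e-08). C1qa, a chain of complement C1q, had 18.8 to 23.5 in 6 libraries and 4.13 and 2.96 in the JQ1 24 h pair (-2.43 ± 0.36, adjusted p = 0.00022). Tyrobp, the adaptor of TREM2, differed by -2.35 ± 0.21, Trem2 by -2.34 ± 0.23 and the lysosomal glycoprotein gene Cd68 by -2.31 ± 0.21. For each of these genes both JQ1 24 h libraries were below all other 6. Spi1, encoding the transcription factor PU.1, was not called, at -0.37 (95% interval -0.89 to 0.14). In bulk RNA, fewer cells of a type and less RNA per cell cannot be told apart. Of the 18 markers, 1 was at 0 in both JQ1 24 h libraries. Without JQ1 24 h replicate 5 the median of the list was -2.23.

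The microglia promoters were searched for GAGGAAG, the core recognised by PU.1, a factor of the myeloid lineage. It was found on either strand in 6 of the 11 promoters matched in RefSeq (54.5%, build GRCr8). The search covered the 250 bases before the start, and 10.1% of 27457 rat promoters held the core there. A match is a description and not a binding site. The 250 bases before the start of Fcgr3a, an Fc gamma receptor whose difference was -2.25 ± 0.19, are shown because they hold this core, in capitals as its reverse complement (GRCr8 chr13:85782386-85782635, plus strand, 5′ to 3′).
Fcgr3a: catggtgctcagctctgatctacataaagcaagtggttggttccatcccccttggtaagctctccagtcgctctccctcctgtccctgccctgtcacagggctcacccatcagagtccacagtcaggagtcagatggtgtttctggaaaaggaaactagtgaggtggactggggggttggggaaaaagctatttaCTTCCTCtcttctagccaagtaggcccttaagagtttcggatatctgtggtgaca

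**Figure D2:**
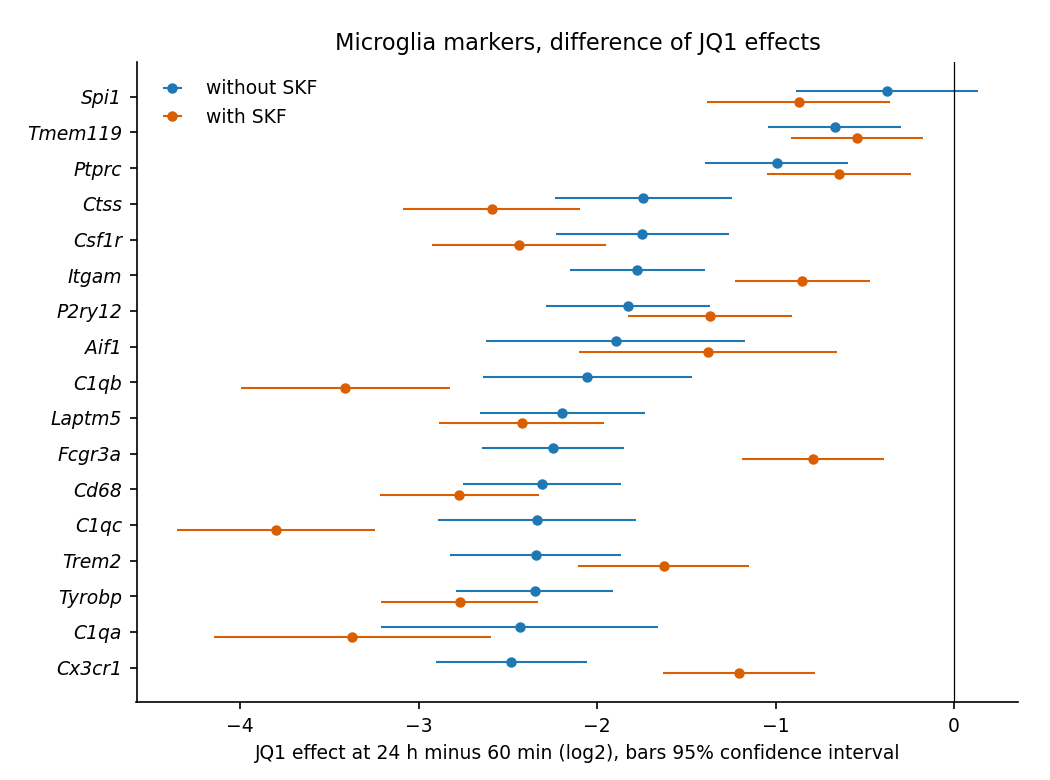
Difference of JQ1 effects, 24 h minus 60 min (log2, x axis), of 17 of the 18 microglia markers (y axis), without SKF (blue) and with SKF (orange); points are estimates and bars 95% confidence intervals. Without SKF every point lies below 0, from Cx3cr1 at -2.48 to Spi1 at -0.37.

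Immune, interferon and matrix genes outside the marker list also had negative differences. Interferon response genes were called lower in 7 of 15 and higher in 0 (median -0.50), beside 19.6% of all genes lower. Examples are Mx2, an antiviral GTPase, at -1.69 ± 0.14, and Gbp2, a guanylate-binding protein, at -1.50 ± 0.15. Inflammatory genes were called lower in 8 of 23 and higher in 2, Rela at 0.34 and Ptgs2 at 0.44 (median -0.38). The chemokine gene Ccl6 differed by -2.63 ± 0.29, and Ccl2, which recruits monocytes, by -1.30 ± 0.27. Ifitm3, an interferon-induced membrane protein, differed by -2.65 ± 0.34 and Cd4 by -2.54 ± 0.20. Matrix and fibroblast genes were lower in 10 of 25 and higher in 3 (Timp1 at 0.40, Col4a2 at 0.41 and Vim at 0.68). Igfbp5, a secreted binder of insulin-like growth factors, had 14.5 to 17.4 scaled FPKM in 6 libraries and 3.65 and 3.49 with JQ1 for 24 h, and Mmp2, a matrix protease, differed by -1.65 ± 0.22. The difference for Igfbp5 was -2.02 ± 0.11 (adjusted p = 1.7e-09). Summed FPKM of the microglia markers fell in the JQ1 24 h pair, and the sums of these lists did not all follow. The inflammatory sum was 573 and 502 in that pair, below the 597 to 644 of the other 6 libraries. The matrix sum was 485 and 395, against 398 to 471 in the other 6. For interferon genes, JQ1 24 h replicate 5 had 119, within the 115 to 136 of the other 6. Replicate 6 was below that range. The part of the microglia markers in the result was not tested.

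Some genes of other glia had negative differences too. Aqp4, the astrocyte water channel, had 43.8 to 60.5 scaled FPKM in 6 libraries and 15.9 and 12 after JQ1 for 24 h (-1.91 ± 0.25, adjusted p = 6.5e-05). Of 15 astrocyte markers, 5 were lower and 0 higher, with a median of -0.25, beside 19.6% of all genes lower. The other 4 called were Aldoc (-0.56), Glul (-0.62), Slc4a4 (-0.42) and Ndrg2 (-0.56). The small heat shock protein genes Cryab and Hspb1 differed by -2.34 ± 0.15 and -1.50 ± 0.29. For Cryab, 6 libraries had 6.76 to 9.13 scaled FPKM and the JQ1 24 h pair 1.56 and 1.12. Ndrg1, a stress-responsive gene, differed by -1.62 ± 0.14. Among 15 oligodendrocyte markers 2 were higher and 2 lower: the lineage factor Olig1 at 0.88 ± 0.19 and Ugt8, an enzyme of myelin lipid synthesis, at 0.71 ± 0.13, against Myrf at -0.86 and Mag at -0.62. Only 2 of 15 endothelial and mural markers in the files passed the filter and 0 were called.

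Glutamate receptor and synapse genes were lower in 12 of 35 and higher in 3 (Nlgn2, Homer1 and Grik3), with a median of -0.15, beside 19.6% of all genes lower and 17% higher. All 15 calls were late-only. Gria1, an AMPA receptor subunit, had 113 and 111 scaled FPKM with DMSO and 113 and 112 with JQ1 at 60 min. After 24 h it had 108 and 108 with DMSO and 60.2 and 63.2 with JQ1. The 60 min groups overlapped and the 24 h groups did not, and the difference was -0.81 ± 0.06 (adjusted p = 1.1e-07). Gria3, another AMPA receptor subunit, differed by -1.06 ± 0.11.

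Among 41 striatal projection neuron genes, 10 were lower and 7 higher (median -0.09), shares close to the 19.6% and 17% of all genes. Of these 17 calls 12 were late-only, 8 lower and 4 higher, and a positive difference of Gpr52 and Gpr6 marks a fall that was smaller or no longer called at 24 h. Cnr1, the cannabinoid receptor, had 89.6 to 105 scaled FPKM in 6 libraries and 52.5 and 49.5 with JQ1 for 24 h, and differed by -0.97 ± 0.09 (adjusted p = 1e-06). Pdyn, the precursor of dynorphin made by D1 neurons, differed by -1.02 ± 0.11, the delta opioid receptor gene Oprd1 by -1.61 ± 0.27 and the nuclear receptor gene Rxrg by -0.81 ± 0.10. Neither Drd2 nor Ppp1r1b had a called difference: Drd2 was at -0.13 (95% interval -0.36 to 0.09) and Ppp1r1b at -0.20 (-0.64 to 0.24). Interneuron and excitatory markers were lower in 5 of 19 and higher in 0, not far from the share of all genes, among them Calb2 (calretinin) at -1.70 ± 0.14, Nos1 at -0.72 ± 0.08 and Cck at -0.66 ± 0.10. The peptide gene Cartpt differed by -0.83 ± 0.14. Voltage-gated channels were lower in 8 of 33 and higher in 3, again close to the shares of all genes. The 8 lower channels were late-only, and the 3 positive differences (Kcna4, Kcnj2 and Kcns2) marked falls at 60 min that were smaller or not called at 24 h. The potassium channel genes Kcnc2 and Kcnd3 differed by -0.87 ± 0.12 and -0.57 ± 0.07, and the sodium channel gene Scn3a by -0.55 ± 0.06.

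Metabolic lists held small negative differences. Respiratory chain genes of the nuclear genome were lower in 11 of 30 and higher in 1 (Ndufb10 at 0.21), with a median of -0.14, beside 19.6% of all genes lower and 17% higher. Sdha, a subunit of complex II, differed by -0.46 ± 0.06. None of 15 mitochondrially encoded genes was called by limma, and their median was 0.22. Cholesterol and fatty acid synthesis genes were lower in 8 of 30 and higher in 0 (median -0.22), a share of lower calls not far above that of all genes, with Srebf1, a regulator of lipid synthesis, at -0.71 ± 0.09.

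Upward late-only differences were smaller and led by Akap13, an anchoring protein of protein kinase A (chr1:137014272-137315272). Akap13 had 1.11 and 1.18 scaled FPKM with DMSO and 0.903 and 0.981 with JQ1 at 60 min. At 24 h the values were 1.09 and 1.03 with DMSO and 5.15 and 5.28 with JQ1. Only the JQ1 24 h pair was high, 3.66-fold above its DMSO pair on the scale with 0.5 added, and the difference was 2.06 ± 0.12 (adjusted p = 3.5e-09). Cd320, the receptor for transcobalamin-bound vitamin B12, had 4.09 to 5.17 in 6 libraries and 14.3 and 14.5 after JQ1 for 24 h (1.49 ± 0.12). The DNA repair phosphodiesterase gene Tdp1 differed by 1.33 ± 0.12, the ER nucleotidase gene Entpd5 by 1.27 ± 0.10 and the transcription factor gene Hlf by 1.28 ± 0.19. Kcnab3, a potassium channel beta subunit, was at 1.38 ± 0.19 and Adcyap1, the precursor of the peptide PACAP, at 1.30 ± 0.32.

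Cytosolic ribosomal protein genes were called higher in 36 of 91 and lower in 0, beside 17% of all genes called higher, with a median of 0.22. Rps2, a small-subunit protein, had 499 to 551 scaled FPKM in the 60 min libraries. At 24 h it had 514 and 478 with DMSO and 816 and 782 with JQ1. The JQ1 24 h pair was above all others, and the difference was 0.58 ± 0.07 (adjusted p = 5.6e-06). Rps10l1 differed by 0.68 ± 0.07. Such genes have near-identical copies, among which reads could be split, so single members are uncertain. The 36 calls include such copies, for example Rpl7a entries at 0.549 and 0.548, and are not 36 separate measurements. Ncl (nucleolin), of the Myc and ribosome biogenesis list, differed by 0.40 ± 0.06, while that list was called higher in 6 of 30 and lower in 3.

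Cell cycle and DNA replication genes were called higher in 11 of 28 and lower in 1 (Mcm6 at -0.33), with a median of 0.34, beside 17% of all genes higher. Aurkb, a mitotic kinase, had 0.710 to 1.16 scaled FPKM in 6 libraries and 2.77 and 2.81 with JQ1 for 24 h (1.27 ± 0.18, adjusted p = 5.9e-05). The proliferation marker Mki67 differed by 0.71 ± 0.13, topoisomerase Top2a by 0.65 ± 0.15 and the helicase subunit Mcm7 by 0.58 ± 0.12. Levels of Aurkb, Mki67 and Top2a stayed low in every library. The lysosome list was split, 6 higher and 5 lower of 30, with the calcium channel gene Mcoln1 at 0.74 ± 0.07.

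Called differences among genes of the JQ1 target machinery were small and positive. Of 15 tested members of the BET and P-TEFb list, 6 were called higher and 0 lower, with a median of 0.24, beside 17% of all genes called higher and 19.6% lower. Cdk9, the P-TEFb kinase, had 17.2 to 17.5 scaled FPKM at 60 min, 18.2 and 16.3 with DMSO at 24 h, and 23.8 and 24.2 with JQ1 at 24 h. Its difference was 0.46 ± 0.08 (adjusted p = 0.00026), with the JQ1 24 h pair above all others. The elongation complex genes Mllt3 and Aff4 differed by 0.48 ± 0.08 and 0.30 ± 0.06. Also called were Ccnt1 (0.34) and Ell2 (0.38). For Brd3 the difference was 0.13 (95% interval 0.00 to 0.26, adjusted p = 0.098).

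Hexim1, the inhibitor of P-TEFb, rose at both times. It had 6.98 and 5.54 scaled FPKM with DMSO and 15.5 and 14.9 with JQ1 at 60 min, and 6.60 and 5.50 against 17.2 and 17.9 at 24 h. The groups did not overlap at either time, and the difference was 0.24 ± 0.13 (95% interval -0.02 to 0.51, adjusted p = 0.15). It was called when 1 library was left out, DMSO 60 min replicate 6 (0.39, adjusted p = 0.017) or DMSO 24 h replicate 5 (0.36, adjusted p = 0.041). Txnip, the inhibitor of thioredoxin (chr2:198683159-198686974), had 19.7 and 18 with DMSO against 74.2 and 72.6 with JQ1 at 60 min. After 24 h it had 35.4 and 34.6 against 121 and 112, so both DMSO and JQ1 levels were higher in the 24 h experiment. Its difference was -0.22 (-0.62 to 0.18). Sertad1, a cell cycle regulator, had 1.26 and 1.77 against 8.42 and 8.09 at 60 min and 1.20 and 0.655 against 3.89 and 3.61 at 24 h. The Sertad1 difference of -0.53 ± 0.21 was not called (adjusted p = 0.059), and without DMSO 24 h replicate 6 it was -0.81 (adjusted p = 0.0033). Without DMSO 60 min replicate 6 it was -0.71 (adjusted p = 0.021). The AP-1 gene Jun rose at both times, with a difference of 0.10 (-0.05 to 0.26).

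Drd1, the D1 dopamine receptor (chr17:11101306-11103541), fell at both times. Its scaled FPKM was 11.5 and 11.1 with DMSO and 5.37 and 5.34 with JQ1 at 60 min. At 24 h it was 13 and 13.9 with DMSO and 5.53 and 6.81 with JQ1. The groups were apart at both times, and the difference was -0.06 ± 0.13 (95% interval -0.34 to 0.22, adjusted p = 0.75). Without JQ1 24 h replicate 5 it was 0.079, also not called. The neuropeptide Y receptor gene Npy1r also fell at both times, with a difference of -0.19 (-0.46 to 0.07). The RNA-binding protein gene Rbm24 had a difference of 0.09 (-0.24 to 0.42).

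Myc, the growth regulator often used as a readout of BET inhibition (chr7:102586313-102591240), fell at both times but less at 24 h. It had 16.9 and 19.0 scaled FPKM with DMSO and 7.26 and 6.82 with JQ1 at 60 min. After 24 h it had 13.8 and 14.4 with DMSO and 11.2 and 10.2 with JQ1. The JQ1 libraries were below the DMSO libraries of their own experiment at both times. The effect was -1.29 at 60 min and -0.38 at 24 h, a difference of 0.91 ± 0.12 (adjusted p = 1.5e-05). Gpr52, an orphan receptor of striatal D2 neurons, likewise went from -1.01 to -0.50 (0.50 ± 0.13).

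Effects that grew between the times included H2ax, the histone variant phosphorylated at DNA breaks. It had 18.9 and 18.7 scaled FPKM with DMSO and 33.8 and 33.4 with JQ1 at 60 min, then 19.3 and 18.9 against 59.0 and 58.6 at 24 h. All 4 JQ1 libraries were above all 4 DMSO libraries, and the difference was 0.77 ± 0.08 (adjusted p = 1.5e-06). The metal transporter gene Cnnm4 differed by 0.90 ± 0.08. Downward, Mtus1, a microtubule-associated tumour suppressor gene, had 12 and 13.1 against 9.87 and 10.3 at 60 min and 13.5 and 14 against 5.77 and 5.45 at 24 h (-0.92 ± 0.09, adjusted p = 1.7e-06). The calcium-binding protein gene Pef1 differed by -1.06 ± 0.06 and the complement receptor gene C3ar1 by -1.29 ± 0.17. The smaller 60 min effect of these genes was not always called. It missed the threshold for Cnnm4 without JQ1 60 min replicate 5 (0.28, adjusted p = 0.064), and for Mtus1 without DMSO replicate 6 or JQ1 replicate 5 of that time (-0.24 and -0.27, adjusted p = 0.16 and 0.14). For Pef1 it was lost without DMSO replicate 5, JQ1 replicate 5 or JQ1 replicate 6 (adjusted p = 0.15, 0.12 and 0.15), and for C3ar1 without any 1 of the 4 (adjusted p = 0.080 to 0.15).

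Most messages of the replication-dependent histone clusters lack a poly(A) tail and so were kept by these ribosomal RNA-depleted libraries. Histone genes, picked by symbol and mostly of these clusters, were prominent among the genes with effects at both times. Of 34 tested, 21 rose at both times, 3 were transient and 3 were reversed, and the median effect was 1.07 at 60 min and 0.93 at 24 h. The difference was called lower for 12 and higher for 4, with a median of -0.29. The higher ones were H1f10 at 1.17, Hist1h2bq at 0.52, H1f2 at 0.34 and Hist2h3c2 at 0.33. H1f10, a variant outside these clusters that the symbol pattern took in, was late-only. Copies of a histone are near-identical in sequence, so reads may be split between them. Promoters of this list were searched for 3 elements known from histone genes, on both strands, in RefSeq promoters of build GRCr8 (26 of 32 symbols matched). TATAAA was found in 15 (57.7%, against 13.1% of all 27457), CCAAT in 22 (84.6%, against 34.3%) and the octamer ATTTGCAT in 8 (30.8%, against 1.5%). A pair of histone promoters is shown, of 2 genes with a large rise at 60 min and a called negative difference, each as the 250 bases before the start, 5′ to 3′ on the gene's strand, with these elements or their reverse complements in capitals. Hist1h2bd lies at GRCr8 chr17:47489009-47489258 (minus strand) and Hist1h2ah at chr17:41812128-41812377 (plus strand).
Hist1h2bd: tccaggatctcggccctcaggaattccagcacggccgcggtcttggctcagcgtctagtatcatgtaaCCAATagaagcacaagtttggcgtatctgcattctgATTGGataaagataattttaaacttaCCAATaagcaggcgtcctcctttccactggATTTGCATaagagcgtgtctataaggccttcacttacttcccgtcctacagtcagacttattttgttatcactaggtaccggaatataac
Hist1h2ah: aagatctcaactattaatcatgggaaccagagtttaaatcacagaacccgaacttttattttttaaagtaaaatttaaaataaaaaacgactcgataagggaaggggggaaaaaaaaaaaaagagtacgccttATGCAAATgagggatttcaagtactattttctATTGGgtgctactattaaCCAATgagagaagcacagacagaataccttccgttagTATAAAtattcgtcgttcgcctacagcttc

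Hist1h2bd, an H2B gene, had 4 and 3.29 scaled FPKM with DMSO and 11.3 and 12 with JQ1 at 60 min. In the 24 h libraries it had 4.68 and 4.65 with DMSO and 5.56 and 6.45 with JQ1. The JQ1 libraries were above the DMSO libraries at both times, with a far wider gap at 60 min, and the difference was -1.23 ± 0.20 (adjusted p = 0.00023). Its 24 h effect of 0.33 (95% interval 0.03 to 0.64, adjusted p = 0.061) just missed the threshold, which is what made it transient. In a fit of the 8 libraries alone (0.32, adjusted p = 0.019) the 24 h rise was called, and the gene then counted as risen at both times with a smaller effect at 24 h. Hist1h2ah, an H2A gene, had 18.4 and 17.0 against 43.0 and 42.7 at 60 min and 18.5 and 18.6 against 24.8 and 25.7 at 24 h, a difference of -0.82 ± 0.12. The H2A gene Hist1h2ak had 6.05 and 3.92 against 11.8 and 13.5 at 60 min, and 5.69 and 5.35 against 4.96 and 6.49 at 24 h, where the groups overlapped (-1.25 ± 0.24, adjusted p = 0.00092). Hist1h2ao had 18.3 and 18 against 25.6 and 24.2 at 60 min and 19.5 and 21.2 against 15.5 and 15.1 at 24 h, a reversal with a difference of -0.84 ± 0.07. Hist1h4b and Hist2h4 carried the same values as Hist1h2ao to within 0.00037% in all 8 libraries, so the 3 reversed histone entries count as 1 measurement.

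**Figure D3:**
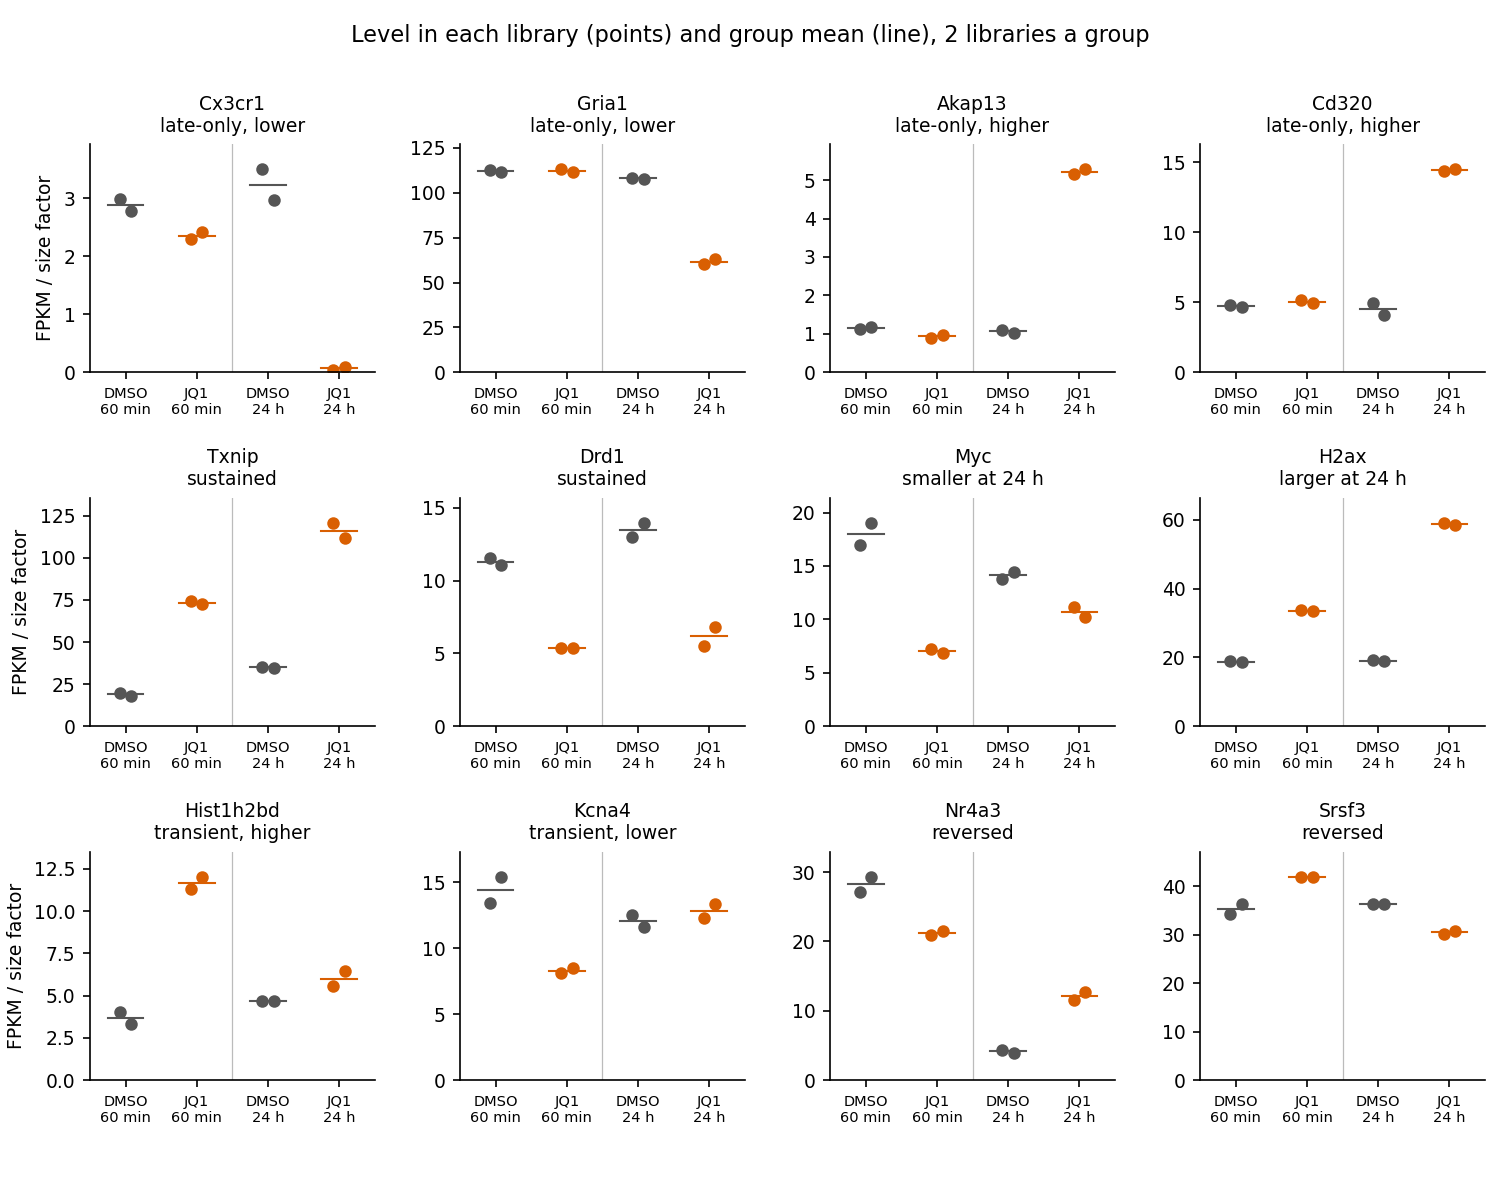
Scaled FPKM (y axis, from 0) of 12 genes in each of the 8 libraries, by treatment and time; points are libraries and lines group means of 2 libraries. Akap13 and Cd320 are high only with JQ1 for 24 h, Cx3cr1 and Gria1 are low only there, and the Myc and Hist1h2bd effects are smaller at 24 h than at 60 min.

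Other transient rises were few. Mylip, a ubiquitin ligase gene, had 3.07 and 2.97 scaled FPKM with DMSO and 6.01 and 6.36 with JQ1 at 60 min. At 24 h it had 2.83 and 2.91 against 3.10 and 2.90, where the groups overlapped. The difference was -0.87 ± 0.10 (adjusted p = 3.5e-06), and the 24 h effect had a 95% interval of -0.09 to 0.20. The immediate early gene Ier5 differed by -0.71 ± 0.16, with a 24 h interval of -0.10 to 0.38.

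Transient falls were more numerous. Kcna4, a voltage-gated potassium channel (chr3:98297554-98300680), had 13.4 and 15.4 with DMSO against 8.14 and 8.46 with JQ1 at 60 min, then 12.5 and 11.6 against 12.3 and 13.3 at 24 h. Only the JQ1 60 min pair was low, and the difference was 0.84 ± 0.11 (adjusted p = 2e-05, 24 h interval -0.08 to 0.25). Jrk, a nuclear DNA-binding protein gene, had 3.37 and 3.35 against 1.76 and 1.65 at 60 min and 4.23 and 3.54 against 3.46 and 3.80 at 24 h (0.72 ± 0.11). Gpr6, an orphan receptor of striatal D2 neurons, had 23.1 and 22.9 against 13.5 and 12.9 at 60 min and 20.1 and 23.0 against 17.3 and 22.6 at 24 h. The Gpr6 difference of 0.66 ± 0.19 (adjusted p = 0.013) was not called without DMSO 24 h replicate 5 (0.57, adjusted p = 0.059) or JQ1 24 h replicate 6 (0.48, adjusted p = 0.067). Zinc finger symbols, a group chosen after the values were seen, made up 23 of the 89 transient falls (25.8%) and 302 of all genes tested (2.16%). They also made up 24 of the 141 falls at both times whose difference was not called (17.0%). An example is Zfp628 at 0.67 ± 0.11.

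Nr4a3, an orphan nuclear receptor induced by neuronal activity (chr5:63781801-63821637), had the largest reversal. It had 27.1 and 29.3 scaled FPKM with DMSO and 20.9 and 21.5 with JQ1 at 60 min. In the 24 h libraries it had 4.29 and 3.97 with DMSO and 11.5 and 12.7 with JQ1. The JQ1 pair was below its DMSO pair at 60 min and above it at 24 h, and both DMSO libraries of the 60 min experiment were far above those of the 24 h experiment. The effect went from -0.40 to 1.45, a difference of 1.85 ± 0.15 (adjusted p = 1.7e-07). Its fall at 60 min was not called when any 1 of the 4 libraries of that time was left out (adjusted p = 0.061 to 0.24), while the difference stayed called. Gmeb2, a DNA-binding transcription factor gene, had 7.74 and 7.6 against 6.09 and 6.17 at 60 min and 5.83 and 5.93 against 10.3 and 9.67 at 24 h (1.02 ± 0.11), with its fall at 60 min likewise lost in each of these cases (adjusted p = 0.11 to 0.17). Jcad, a junctional protein gene, had 8.51 and 8.35 against 5.56 and 5.08, then 5.78 and 6.14 against 7.68 and 8.89 (1.06 ± 0.15), and stayed in its class in every case. Bcl6, a transcriptional repressor gene, had 7.65 and 9.10 against 6.96 and 6.67, then 7.68 and 8.10 against 11.7 and 12.1 (0.84 ± 0.09). Its 60 min fall missed the threshold without DMSO replicate 6, JQ1 replicate 5 or JQ1 replicate 6 (adjusted p = 0.26, 0.057 and 0.14).

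Reversals from higher to lower were fewer, 6 against 25, with a median difference of -0.80 against 0.75. The 6 include the 3 histone entries that count as 1 measurement, each at -0.84, so both the count and the median lean on them. Plk3, a stress-responsive kinase gene, had 6.48 and 7.67 against 9.68 and 9.03 at 60 min and 5 and 5.48 against 3.89 and 3.97 at 24 h (-0.75 ± 0.12, adjusted p = 0.00015). Its rise at 60 min was lost without DMSO replicate 5 or JQ1 replicate 5 (adjusted p = 0.14 and 0.16). Srsf3, a splicing factor gene, had 34.4 and 36.3 against 41.9 and 41.9, then 36.3 and 36.4 against 30.2 and 30.7 (-0.49 ± 0.07). Its rise at 60 min had an adjusted p of 0.050 without DMSO replicate 5. In each of these genes the JQ1 and DMSO groups were apart at both times.

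Immediate early genes were split, with 7 of 37 called higher and 6 lower, shares close to those of all genes. Their median difference was 0.03 and turned to -0.02 on FPKM as deposited and -0.01 with voom. Summed FPKM of the list was 546 and 544 with DMSO at 60 min and 281 and 272 with DMSO at 24 h, and 711 and 723 against 385 and 375 with JQ1. The DMSO level thus differed between the experiments, and its part in the difference was not tested. Fos had 38.4 and 46.6 against 61.6 and 65.6 at 60 min and 5.72 and 5.07 against 12.9 and 12.5 at 24 h, a difference of 0.59 ± 0.25 that was not called (adjusted p = 0.079). It was called in a fit of the 8 libraries alone (adjusted p = 0.0087). Nr4a2, a related nuclear receptor gene, had 4.71 to 5.91 in the 4 libraries at 60 min and 1.09 and 1 against 3.23 and 3.36 at 24 h (1.17 ± 0.15). Fosl2, an AP-1 subunit gene, differed by 0.77 ± 0.14, from -0.38 to 0.39, and its 60 min fall was lost without DMSO replicate 5 or JQ1 replicate 6 (adjusted p = 0.22 and 0.31). The ERK phosphatase gene Dusp6 differed by 0.71 ± 0.11. The differences of Arc (-0.40, interval -1.09 to 0.29), Nr4a1 (0.34, -0.42 to 1.10) and Npas4 (0.36, -0.27 to 0.99) were not called.

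Later activity-regulated genes were called higher in 8 of 34 and lower in 5, with a median of -0.05, shares close to those of all genes. Bdnf, the neurotrophin gene, had 0.657 and 0.648 against 0.508 and 0.352 at 60 min and 0.217 and 0.302 against 0.774 and 0.968 at 24 h. The JQ1 24 h pair was the highest of the 4 groups at these low levels, and the difference was 1.17 ± 0.25 (adjusted p = 0.0015). The neuropeptide precursor gene Vgf differed by 0.97 ± 0.18 and the bZIP factor gene Nfil3 by 0.90 ± 0.10.

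**Figure D4:**
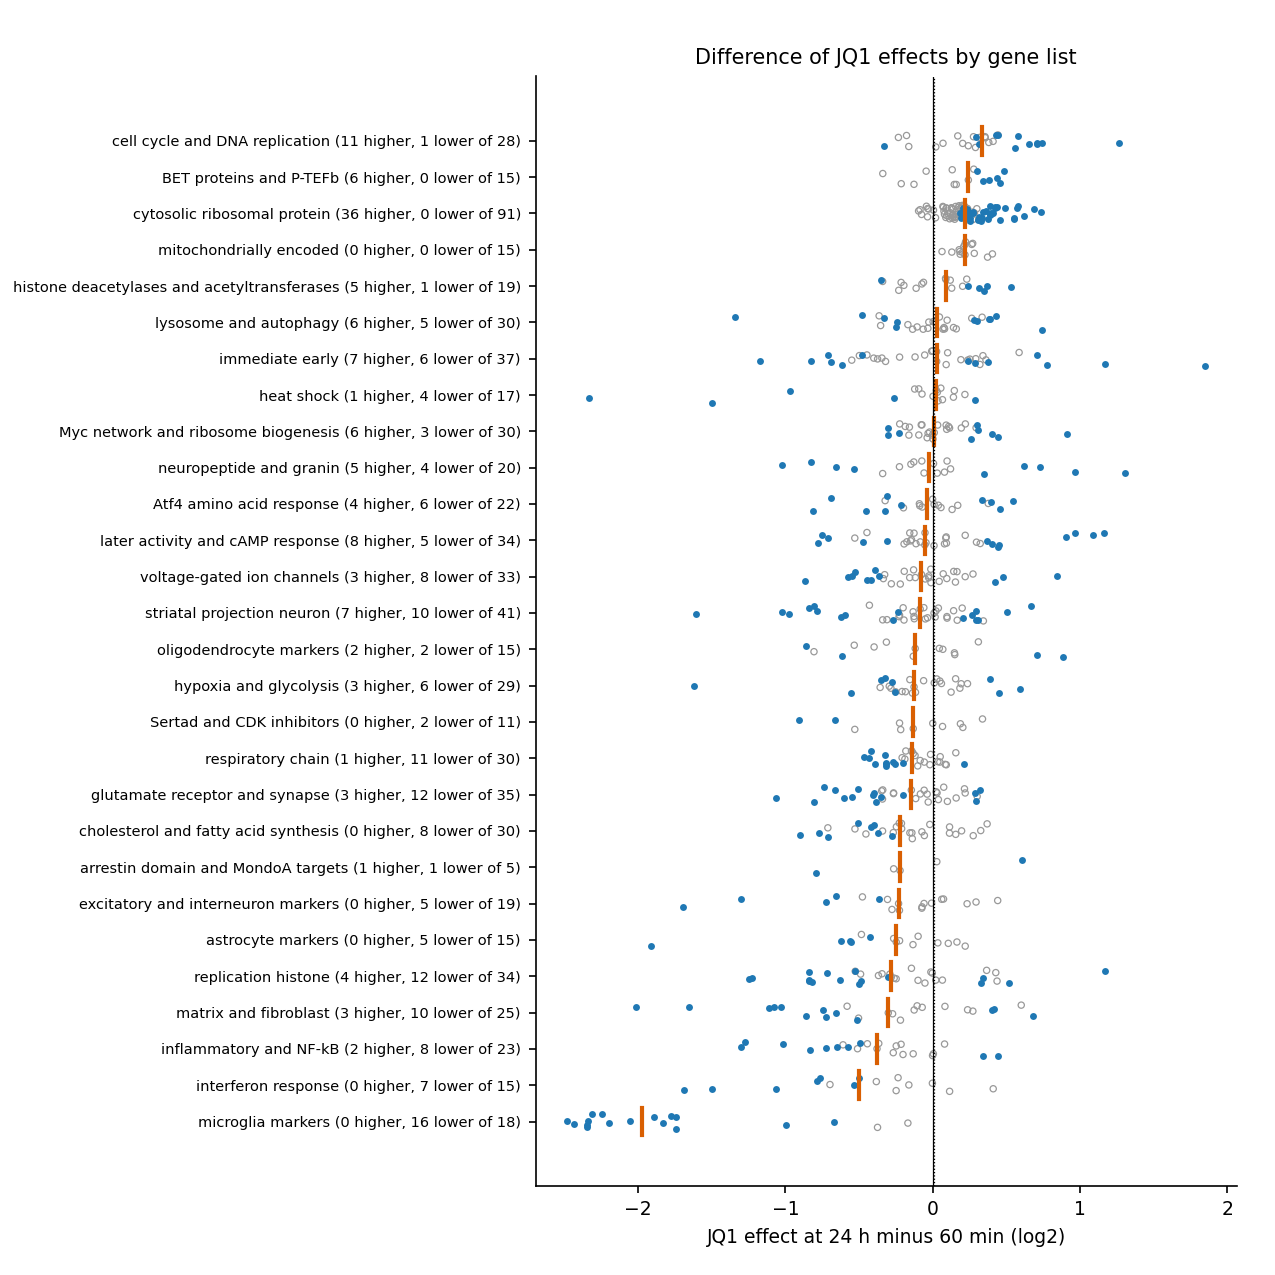
Difference of JQ1 effects, 24 h minus 60 min (log2, x axis), of the tested members of each gene list (y axis, ordered by median); filled points were called, open points were not, and orange bars are list medians. Microglia markers have a median of -1.98, and cell cycle genes the highest at 0.34.

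The same difference was then computed in the 8 libraries that carried SKF. These share no library with the first 8, though the fit shares the spread, the filter and the scaling. The difference was called for 5223 genes (37.3%), with 2414 higher and 2809 lower. Called higher in both were 1788 genes (75.3% of the higher calls without SKF and 74.1% of those with SKF), and called lower in both were 2240 (81.5% and 79.7%). Of the 5124 genes called without SKF, 5078 (99.1%) had the same sign with SKF, beside 12009 of all 13999 genes tested (85.8%). Only 1 gene, Sstr2, was called in opposite directions. Pearson's r of the differences was 0.82 across genes, which are not independent replicates. By class, 3747 of 4689 late-only genes (79.9%), 74 of 107 transient genes (69.2%) and 30 of 31 reversed genes had the same call of the difference with SKF. Among all genes tested, 36.9% had a called difference with SKF of the same sign as without. The 31 reversed genes include the 3 histone entries that count as 1 measurement. Akap13 differed by 2.03, Fcrl2 by -3.39, Nr4a3 by 1.13 and Drd1 by 0.21 with SKF.

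The change in the difference with SKF was also tested directly, and limma called 0 genes, while 379 had an unadjusted p under 0.05 and voom called 0 as well. The smallest adjusted p was 0.31, for Fcgr3a, whose difference was 1.46 (95% interval 0.89 to 2.02) less negative with SKF. Other microglia genes moved the other way, such as C1qc from -2.34 without SKF to -3.80 with SKF, C1qb from -2.06 to -3.41, C1qa from -2.43 to -3.37 and Ctss from -1.74 to -2.59. The microglia list had a median of -1.50 with SKF, with 17 of 18 lower. Its summed FPKM with SKF alone was 77.7 and 60.6 at 24 h, below the 122 to 150 of the 6 libraries without SKF and without JQ1 for 24 h, and with SKF and JQ1 for 24 h it was 16.7 and 15.5.

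**Figure D5:**
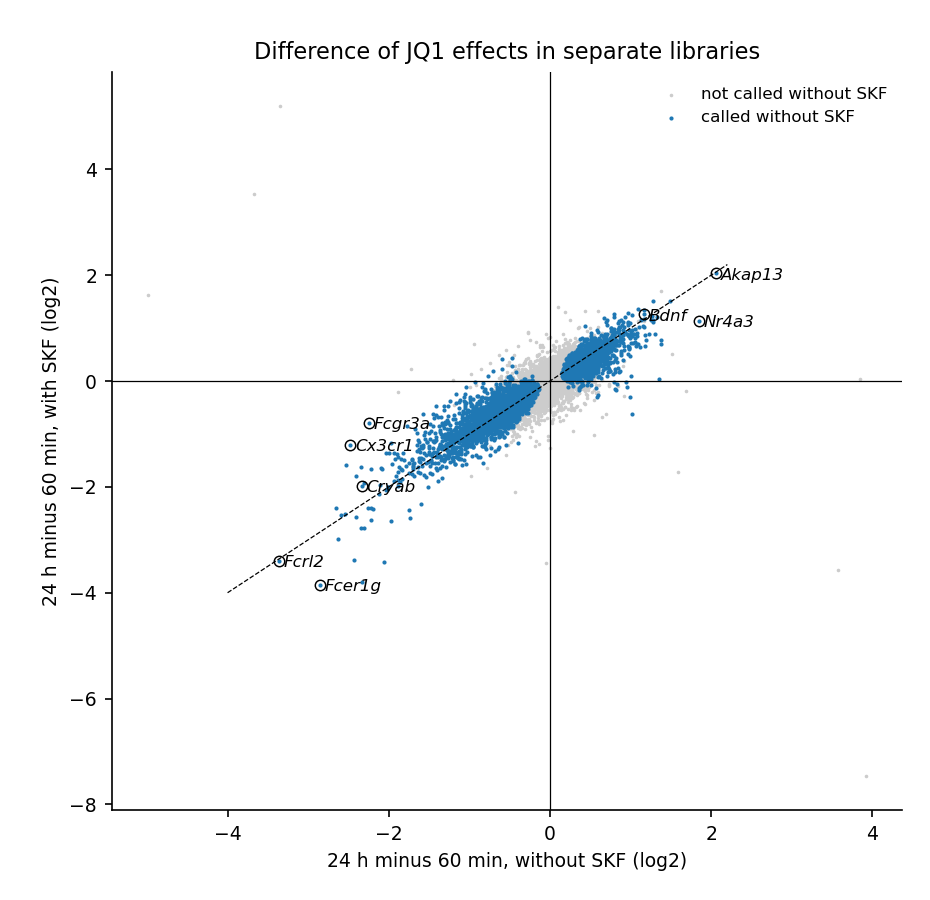
Difference of JQ1 effects, 24 h minus 60 min (log2), in the libraries with SKF (y axis) against those without (x axis), 1 point per gene, blue where called without SKF; the dashed line marks equal values. Most called genes lie near that line, and Fcgr3a and Cx3cr1 lie above it and Fcer1g below it.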

How the data were processed

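Gene expression was measured by RNA sequencing of ribosomal RNA-depleted stranded libraries of total RNA, per the labels' protocols. Per the submitters' processing notes, reads went through Trim Galore and FastQC, STAR, and StringTie, the authors also ran DESeq2, and the build was Rnor_6.0, all without version numbers. The quantification's strand setting, not given in the sources used here, can matter: genes that overlap or lie antisense are uncertain. The deposited StringTie tables hold FPKM (fragments per kilobase of transcript, scaled to library depth by the authors) and coverage (mean reads per base, as computed by the authors) of 41078 transcripts of 32883 genes. Coverage was used for depth and for the voom alternative.

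FPKM were summed by gene and scaled by median-ratio size factors (scaled FPKM). A gene was tested if 2 or more libraries reached 0.5 FPKM and its longest transcript had 200 nt or more. Contrasts of 12 group means over 23 libraries were tested on log2(scaled FPKM + 0.5) with limma 3.58.1 (trend and robust) in R 4.3.3, two-sided, with Benjamini-Hochberg adjustment over all 13999 genes and calls at an adjusted p under 0.05. The script recovered known changes in simulated data. SKF plus iBD2 replicate 2 was not analysed here. Members, lists and tests were chosen with earlier results of these data known. Named genes were the 15 largest called differences in each direction with a mean of at least 1 FPKM in the highest group and library effects apart, 6 per class and direction, up to 4 per list by p, and a fixed set of BET, striatal and immediate early genes, and the text gives some of these. Intervals are at the 95% level. The main fit did not pair libraries by replicate number. Scaling, pseudocount, filter, block, libraries in the fit, tool and left-out libraries were varied. Some genes are not reported here.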

Additional observations from a re-analysis of the deposited data

Results flagged for a closer look

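The effect of JQ1 differed between 24 h and 60 min, by the test of the difference itself, for 5124 genes without SKF and for 5223 genes with SKF. For 31 genes, among them 3 histone entries that count as 1 measurement, the calls at the 2 times had opposite signs. Among the named genes of this kind, the log2 difference (24 h minus 60 min) was -0.84 for Hist1h2ao, -0.75 for Plk3 and -0.49 for Srsf3, which went from higher to lower. It was 0.77 for Fosl2, 0.84 for Bcl6, 1.02 for Gmeb2, 1.06 for Jcad and 1.85 for Nr4a3, which went from lower to higher. With 2 libraries a group, no group was large enough to test for an outlying library.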

How the results depend on the processing

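In every alternative the difference was called for 4135 to 5357 genes without SKF, and 78.4 to 99.1% of the genes called were called the same way, none with the opposite sign. FPKM as deposited gave 1460 higher calls in place of 2374. In the 8 libraries alone, transient, reversed and sustained genes numbered 66, 15 and 272. Leaving out 1 library gave 57 to 120 transient, 15 to 32 reversed and 225 to 401 sustained genes, and 0 to 1 genes for the change of the difference with SKF. The single genes were Tiparp (0.97), Eln (2.09) and AABR07030184.4 (-6.61), without SKF 60 min replicate 5, DMSO 24 h replicate 5 and SKF with JQ1 24 h replicate 6. Without the filter that test called 14 genes.

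Of 84 named genes with a called difference, 83 kept the call throughout, the exception being Gpr6. Named genes were picked largely by the size or p of the difference in these same libraries, so their kept calls are no separate check. Uncalled differences that changed sign were those of Drd1, -0.20 to 0.079 with 1 library left out (above 0 without JQ1 24 h replicate 5), and Rbm24, -0.024 to 0.20 (below 0 without DMSO 24 h replicate 5). The cause of these changes was not tested. Of 527 list medians under alternatives, 21 changed sign, in 7 lists. The largest medians among these were -0.13 (Sertad and CDK inhibitors, 0.049 without JQ1 24 h replicate 6) and -0.12 (oligodendrocyte markers, 0.027 without the same library). With the replicate number as a block, the difference was called for 5330 genes, and with the number nested in experiment for 5357. With the block the 24 h rise of Hist1h2bd was called (0.33, adjusted p = 0.045), so it was no longer transient. Correlations of deviations between same-numbered libraries, within and between experiments, ran from -0.32 to 0.37. Such values over all genes show no clear pairing by number but cannot exclude it. Summed microglia markers were higher in replicate 5 than in replicate 6 of every group of experiment 3. In experiment 1 replicate 5 was also higher with DMSO (149 and 128), SKF (158 and 107) and SKF with JQ1 (147 and 137). With JQ1 alone it was not (131 and 136). The cause of this order was not tested. Depth differed between libraries, and precision is limited by 2 libraries a group.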

Other observations

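Differences of the JQ1 effect in further gene lists are given beside the 17% of all genes called higher and 19.6% called lower. Neuropeptide and granin genes were called higher in 5 of 20 and lower in 4, with Nts (neurotensin) at 0.73, Crh (corticotropin-releasing hormone) at 0.62 and Scg3 at 0.35, against the prohormone convertase gene Pcsk2 at -0.54. Histone deacetylase and acetyltransferase genes were called higher in 5 of 19 and lower in 1. The higher members were Hdac9 (0.53), Kat6a (0.36), Hdac3 (0.35), Hdac5 (0.31) and Kat8 (0.24), and the lower one was Kat2a (-0.35). Of 11 Sertad and CDK inhibitor genes, Cdkn1a at -0.91 and Cdkn1c at -0.66 were lower and 0 were higher.

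Genes of the amino acid response driven by Atf4 were higher in 4 of 22 and lower in 6. Psat1 (0.55), Shmt2 (0.46) and Asns (0.40), which encode enzymes of serine, glycine and asparagine metabolism, were higher, and Gdf15 (-0.81) and the cystine transporter gene Slc7a11 (-0.69) were lower. With SKF the list was called higher in 1 and lower in 11. There Psat1, Shmt2 and Asns were not called, and Gdf15 and Slc7a11 were again called lower. In the lysosome list, called higher in 6 of 30 and lower in 5, hydrolase genes such as Gusb (-1.34) and Hexa (-0.33) were lower, while Tfe3 (0.38), Ulk1 (0.43) and the proton pump subunit gene Atp6v0d1 (0.39) were higher. Hypoxia and glycolysis genes were called lower in 6 of 29 and higher in 3, shares not far from those of all genes. Among the called members, the glycolytic enzyme genes Pgk1 (-0.32) and Hk1 (-0.35) were lower and Pfkl (0.45) was higher. Of 17 heat shock genes, 4 were called lower and 1 higher: Hspb8 (-0.97) and Hsph1 (-0.26) were lower beside Cryab and Hspb1, and Dnajb1 (0.28) was higher. Genes spanning more than 300 kb were called lower in 108 of 335 and higher in 31, with a median of -0.12.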
